A study of Mus musculus with 5 samples.

Results

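Rbp7-high capillary endothelial cells are the cells of the heart's smallest vessels that carry the most RNA of Rbp7, a small intracellular protein that binds retinol. They were chosen cell by cell from the deposited values, which are the natural log of 1 plus unique molecular identifiers (UMIs, the counted RNA molecules) per 10000. A cell had to show the endothelial genes Cdh5 or Pecam1, the capillary gene Gpihbp1, Fabp4 at or above 3 and Rbp7 at or above 3. It had to lack Apln, Fbln5, Prox1, Pdgfra and Ptprc and to stay under 1.5 for the endocardial gene Npr3. This gave 678 cells of 10961 in all. A further 934 cells met the same conditions with Rbp7 under 3 and are called Rbp7-low, so that 42.1% of 1612 gated capillary cells were Rbp7-high. Since Rbp7 itself divided these cells, every difference between Rbp7-high and Rbp7-low cells is a description and carries no test.

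The cells came from 5 droplet libraries of cardiac interstitial cells of adult mice. Hearts were minced and digested with collagenase II, cardiomyocytes were removed by slow spinning and straining, and the rest was sorted on surface cKit (a receptor tyrosine kinase) and DDR2 (a collagen receptor found on fibroblasts). The single-positive sorts were cKit-/DDR2+, with 1 library, and cKit+/DDR2-, with 2 libraries called replicates 1 and 2. The double-positive cells were parted by CD45, the leukocyte antigen that the gene Ptprc encodes, into cKit+/DDR2+/CD45- and cKit+/DDR2+/CD45+, each with 1 library. The labels state no strain, sex, genotype, treatment or number of animals, and the cells are not a purified endothelial sort: they are the capillary cells that these gates let through.

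The sort cKit-/DDR2+ gave 341 Rbp7-high cells, cKit+/DDR2- replicate 1 gave 17, replicate 2 gave 98, cKit+/DDR2+/CD45- gave 208 and its CD45+ counterpart 14. Only the 3 libraries with at least 20 cells on each side, holding 647 Rbp7-high and 856 Rbp7-low cells, entered the gene comparisons. Median UMIs per Rbp7-high and Rbp7-low cell were 5082 and 4865 in cKit-/DDR2+, 4699.5 and 6815.5 in cKit+/DDR2- replicate 2, and 5127 and 6657 in cKit+/DDR2+/CD45-. The libraries cKit+/DDR2- replicate 1 and cKit+/DDR2+/CD45+ shared 190 cell barcodes, 43.6% of the cells of the former, while no other pair of libraries shared more than 3. The barcodes in common were a median of 19.2 times deeper in replicate 1, and they included 1 Rbp7-high cell in each of these libraries, neither of which was used for gene comparisons. Xist RNA was seen in the gated cells of cKit+/DDR2- replicate 2 and cKit+/DDR2+/CD45- and Y-linked Ddx3y RNA in those of the other 3 libraries. Ptprc is not listed for cKit+/DDR2+/CD45-, where the condition on it was therefore met by every cell.

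Capillaries of the heart pass fatty acids from blood to cardiomyocytes, the organ's main fuel. Lipoprotein lipase held by GPIHBP1 on the vessel wall frees the fatty acids, CD36 takes them up, and FABP4 and FABP5 carry them inside the cell. RBP7 belongs to the same family of small lipid-binding proteins as FABP4, carries retinol, and in endothelium its gene is a known target of PPARγ, a nuclear receptor for fatty acids. Along a capillary, endothelial cells grade from an arterial side marked by Notch signalling (DLL4, HEY1, EFNB2) to a venous side marked by NR2F2, EPHB4 and VWF.

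Promoter sequences are shown for Rbp7, which set the groups, and for Aqp7 and Plin2, which were higher in Rbp7-high cells. Aqp7 encodes a channel for glycerol and water, and Plin2 a coat protein of lipid droplets. Each run is the 250 bases before an annotated start, 5′ to 3′ on the gene's strand, from RefSeq on GRCm38.p6. The Rbp7 run lies on the minus strand at chr4:149454969-149455218, the Aqp7 run before one of its starts on the minus strand at chr4:41047963-41048212, and the Plin2 run on the minus strand at chr4:86670060-86670309. Capitals mark matches on either strand to AGGTCA, the half-site that PPARγ and the retinoid receptors read, or to GTGGGAA, the core bound by RBPJ, the DNA-binding partner of Notch.
Rbp7: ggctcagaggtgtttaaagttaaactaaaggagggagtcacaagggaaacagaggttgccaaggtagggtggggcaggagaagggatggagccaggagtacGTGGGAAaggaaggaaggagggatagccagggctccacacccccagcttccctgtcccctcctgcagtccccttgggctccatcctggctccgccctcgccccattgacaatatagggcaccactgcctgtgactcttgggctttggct
Aqp7: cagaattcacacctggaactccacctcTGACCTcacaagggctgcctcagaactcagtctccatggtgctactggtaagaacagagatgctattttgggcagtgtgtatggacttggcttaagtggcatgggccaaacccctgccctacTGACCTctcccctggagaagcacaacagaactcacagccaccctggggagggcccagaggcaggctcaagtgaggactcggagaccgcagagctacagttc
Plin2: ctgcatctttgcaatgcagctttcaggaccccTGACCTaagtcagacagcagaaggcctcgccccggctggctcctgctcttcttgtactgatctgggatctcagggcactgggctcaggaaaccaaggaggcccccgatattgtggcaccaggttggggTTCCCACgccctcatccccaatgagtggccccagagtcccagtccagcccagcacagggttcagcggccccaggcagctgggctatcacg
The Rbp7 promoter held an RBPJ match 149 bases before the start and no half-site. The Aqp7 promoter held 2 half-sites, read as TGACCT, and the Plin2 promoter a half-site and an RBPJ match, read as TTCCCAC. The promoters of Cxcl12, Btnl9, Rgcc and Unc5b, genes also higher in Rbp7-high cells, held neither match. Alpl, also higher, held a half-site at a start and no match at another. Windows of 300 bases around the starts of 27025 genes were also searched. That set left out a whole chromosome and held no start of Hey1 or Lpl. Of its 32851 promoters, 16.3% held AGGTCA and 6.38% held GTGGGAA on either strand. The 101 promoters of 67 genes that were higher in Rbp7-high cells held them in 13.9% and 4.95%, and the 89 promoters of 61 lower genes in 13.5% and 4.49%. These shares lay within 1.5 percentage points of those of the 3387 promoters of genes measured here, 12.5% and 4.90%. A match is a run of letters and not evidence of binding.

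Rbp7-high cells made up a similar fraction of gated capillary cells in the 3 larger sets. The share was 40.4% (95% exact Clopper-Pearson interval 37.1 to 43.8) of 844 gated cells in cKit-/DDR2+, 42.6% (36.1 to 49.3) of 230 in cKit+/DDR2- replicate 2 and 48.5% (43.7 to 53.3) of 429 in cKit+/DDR2+/CD45-. It was 26.6% (16.3 to 39.1) of 64 cells in cKit+/DDR2- replicate 1 and 31.1% (18.2 to 46.7) of 45 cells in cKit+/DDR2+/CD45+. These intervals cover counting error only, and with 1 library in most sorts no difference between sorts was tested. As a share of all cells of a library, Rbp7-high cells ranged from 0.359% in cKit+/DDR2+/CD45+, which is mostly leukocytes, to 15.7% in cKit+/DDR2+/CD45-. Levels below are in CPM, the usual depth-scaled count: a gene's UMIs summed over the cells of a group in a library, relative to that group's total UMIs. Kit RNA stood at 8.62 CPM in the Rbp7-high cells of cKit-/DDR2+, at 20.6 CPM in those of cKit+/DDR2- replicate 2, and at 14.3 CPM in those of cKit+/DDR2+/CD45-. Ddr2 RNA stood at 17.8, 2.06 and 9.85 CPM in the same order. These levels rest on 15, 10 and 16 UMIs of Kit and on 31, 1 and 11 UMIs of Ddr2, and the 95% counting interval of the Kit difference between cKit+/DDR2- replicate 2 and cKit-/DDR2+, -0.06 to 2.51 on the log2 scale, held 0. No Kit UMI was seen in the 17 Rbp7-high cells of cKit+/DDR2- replicate 1 or the 14 of cKit+/DDR2+/CD45+.

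Rbp7 at or above 3 was rare outside capillary and Fbln5-positive endothelium. Among cells that met the same gate but carried Fbln5, an elastic-fibre gene of arterial endothelium, 81.5% (72.9 to 88.3) of 108 cells reached 3 in cKit-/DDR2+, 63.6% of 22 in cKit+/DDR2- replicate 2 and 78.3% of 23 in cKit+/DDR2+/CD45-. Among cells of the gate that carried Apln, a peptide gene of angiogenic tip cells, the shares were 9.41% of 85, 17.1% of 35 and 14.8% of 108. The Rbp7-high share of the capillary gate thus lay between those of the Apln-positive and Fbln5-positive cells in all 3 libraries. In endocardial cells, which line the heart chambers, 1 of 44, 0 of 1328 and 1 of 496 cells reached 3. No fibroblast of 715 in cKit-/DDR2+ (median 14057 UMIs) and no leukocyte of 3166 in cKit+/DDR2+/CD45+ (median 11519 UMIs) did so. Those leukocytes carried 3.89 CPM of Rbp7, against 3714 CPM in the 14 Rbp7-high cells of the same library.

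**Figure D1:**
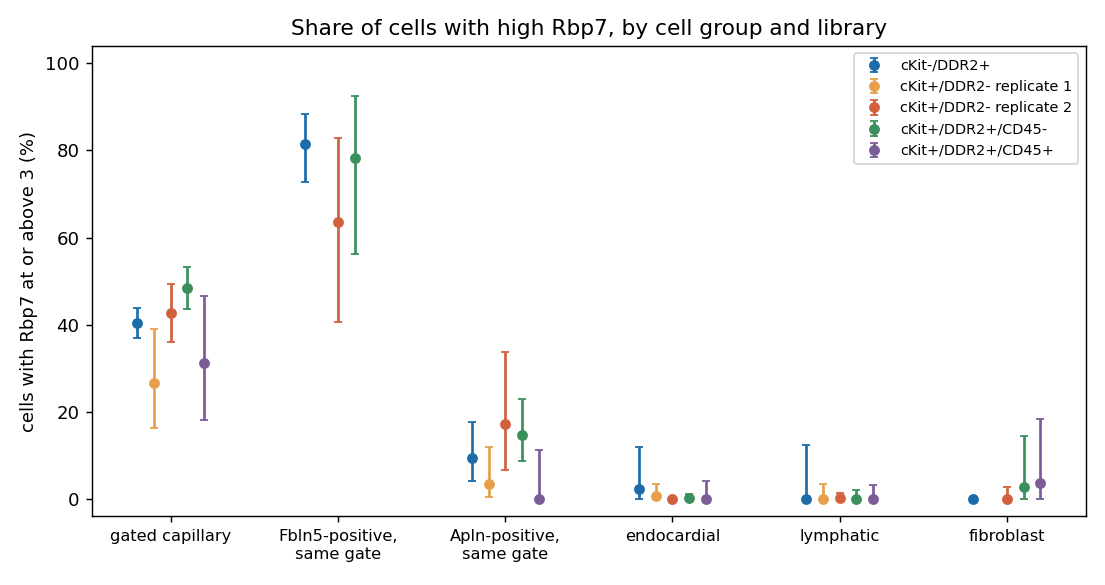
Share of cells with Rbp7 at or above 3 (percent, vertical axis) by cell group and library, with 95% exact Clopper-Pearson intervals; groups under 20 cells are left out. Fbln5-positive cells stand highest, at 63.6% to 81.5%, gated capillary cells lie between 26.6% and 48.5%, and endocardial, lymphatic and fibroblast groups lie at or below 3.57%.

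The Fbln5-positive cells differed from Rbp7-high cells in arterial and in some capillary genes. Gja4, the connexin of arterial endothelium, stood at 270.2 CPM in Fbln5-positive and 24.1 CPM in Rbp7-high cells of cKit-/DDR2+, 107 against 12.4 CPM in cKit+/DDR2- replicate 2, and 307 against 18.8 CPM in cKit+/DDR2+/CD45-. Hey1 stood at 391 against 225, 195 against 136 and 295 against 62.7 CPM in the same order. Both genes were higher in the Fbln5-positive cells of all 3 libraries. Car4, a carbonic anhydrase on the capillary surface, was lower in them, at 32.3 against 223, 20.2 against 262 and 118 against 347 CPM, as was Aqp7, at 234 against 380, 94.02 against 210.2 and 242 against 268 CPM. Cxcl12 and Btnl9 were not on 1 side: in cKit+/DDR2+/CD45- they stood at 3825 against 2852 CPM and 543 against 484 CPM, higher in Fbln5-positive cells, and in the other 2 libraries they were lower. Vwf, a venous and endocardial gene, stood at 10.3 against 8.62 CPM in cKit-/DDR2+. It stood at 1162 against 51.5 CPM in cKit+/DDR2- replicate 2 and 401 against 12.5 CPM in cKit+/DDR2+/CD45-. The Fbln5-positive cells of these last 2 libraries are therefore not called arterial as a whole.

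Across 3303 genes with at least 50 CPM in the mean of either group, 90 were at least 1.5-fold higher on average in Rbp7-high cells and on the same side in all 3 libraries, and 88 were lower by the same rule. These are 2.72% and 2.66% of the genes, or 5.39% together, the 11 genes of the gate not being counted. Differences of any size on the same side in all 3 libraries were held by 26.1% of the genes in the higher and 17.6% in the lower direction. A mean difference of 2-fold or more was held by 24 of the higher and 45 of the lower genes. The median difference over all genes was 0.04 and the median SD between libraries 0.20, on the log2 scale with 1 CPM added. Without cKit-/DDR2+, the counts were 152 higher and 137 lower. Cells with at least 2 of 11 endocardial genes were fewer among Rbp7-high cells: 4.11% against 10.3% of Rbp7-low cells in cKit-/DDR2+, 13.3% against 43.9% in cKit+/DDR2- replicate 2 and 13.0% against 26.7% in cKit+/DDR2+/CD45-. With those cells left out of both groups, 73 genes were higher, 58 of them among the 90, and 49 lower, 33 of them among the 88.

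The remaining capillary markers Rgcc, Cxcl12, Btnl9 and Aqp7 were all higher in Rbp7-high than in Rbp7-low cells of each of the 3 libraries. Rbp7, which set the groups, stood at 4055 against 798 CPM in cKit-/DDR2+, 4492 against 643 CPM in cKit+/DDR2- replicate 2 and 4119 against 837 CPM in cKit+/DDR2+/CD45-. Rgcc, a regulator of the cell cycle and of endothelial growth, stood at 1415 against 861, 1098 against 321 and 1317 against 573 CPM in the same order, a log2 difference of 1.23 ± 0.53 (SD, n = 3 libraries). The 3 Rbp7-high values, from 1098 to 1415 CPM, all lay above the highest Rbp7-low value.

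Cxcl12, the chemokine that CXCR4 binds, stood at 4043 against 1962, 2505 against 559 and 2852 against 1128 CPM, a difference of 1.51 ± 0.58. Btnl9, a butyrophilin-like surface protein, stood at 523 against 253, 410 against 85.4 and 484 against 219 CPM, a difference of 1.48 ± 0.67. Aqp7 stood at 380 against 206, 210 against 29.6 and 268 against 120 CPM, a difference of 1.61 ± 1.03. The Aqp7 difference was widest in cKit+/DDR2- replicate 2 and came to 1.01 without that library. Levels of these genes in the Rbp7-high cells differed less between libraries than those in the Rbp7-low cells, and cKit+/DDR2- replicate 2 had the lowest Rbp7-low level of all of them.

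Of 12 capillary genes outside the gate, 9 were higher and none lower, with a median of 0.74, against 2.72% of all genes higher and a median of 0.04. Besides the markers above these were Car4 at 0.88 ± 0.51, the VEGF receptor gene Kdr at 0.76 ± 0.29, the kinase gene Sgk1 at 0.73 ± 0.25, Cd300lg, a receptor of capillary and lymph node vessels, at 0.68 ± 0.06, and Tcf15 at 0.66 ± 0.24. The markers Rgcc, Cxcl12, Btnl9 and Aqp7 were chosen with earlier results of these data known. They are among the 9 and add no independent support to that count. Cd36 at 0.41 ± 0.29, Timp4 at 0.66 ± 0.71 and Meox2 at 0.02 ± 0.52 did not meet the rule. Timp4 and Meox2 were not on the same side in the 3 libraries. Without the cells holding endocardial genes, 5 of the 12 met it and the median was 0.58: Kdr came to 0.58, Car4 to 0.57 and Tcf15 to 0.45, while Rgcc, Cxcl12, Btnl9 and Aqp7 remained among the genes counted. None of 11 further pan-endothelial genes met the rule in either direction, their median being 0.04.

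Genes of fatty acid uptake and handling were partly higher: 7 of 20 met the rule, against 2.72% of all genes, none was lower, and the median was 0.36. Aqp7, a marker chosen with earlier results of these data known, is among the 7. On the lipase side, Lpl, the lipase that frees fatty acids from lipoproteins, stood at 1201 against 968 CPM in cKit-/DDR2+, 2421 against 731 CPM in cKit+/DDR2- replicate 2 and 1569 against 1046 CPM in cKit+/DDR2+/CD45-, a difference of 0.87 ± 0.75. Mgll, which breaks down monoacylglycerol, stood at 3333 against 1945, 2598 against 1077 and 2609 against 1507 CPM, a difference of 0.95 ± 0.28. Its Rbp7-high values, 2598 to 3333 CPM, did not overlap the Rbp7-low values, 1077 to 1945 CPM. Lipe, the hormone-sensitive lipase, differed by 0.59 ± 0.30.

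Plin2 stood at 165 against 98.1, 113 against 45.5 and 123 against 84.7 CPM, a difference of 0.86 ± 0.40. Among the regulators, Pparg stood at 109 against 91.5, 132 against 46.7 and 148 against 99.6 CPM, a difference of 0.76 ± 0.64. Tcf15, a transcription factor that with MEOX2 drives fatty acid transport genes in heart endothelium, stood at 990 against 713, 631 against 331 and 819 against 550 CPM. The carriers themselves differed little: Fabp5 by -0.03 ± 0.21 and Cd36 by 0.41 ± 0.29. Without cKit+/DDR2- replicate 2, 3 of 19 genes met the rule. Lpl then came to 0.45, Pparg to 0.41, Lipe to 0.42 and Tcf15 to 0.52. The calls of these 4 thus rest on that library, although their differences stayed positive without it. Without the cells holding endocardial genes Lpl came to 0.52 and Lipe to 0.44.

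**Figure D2:**
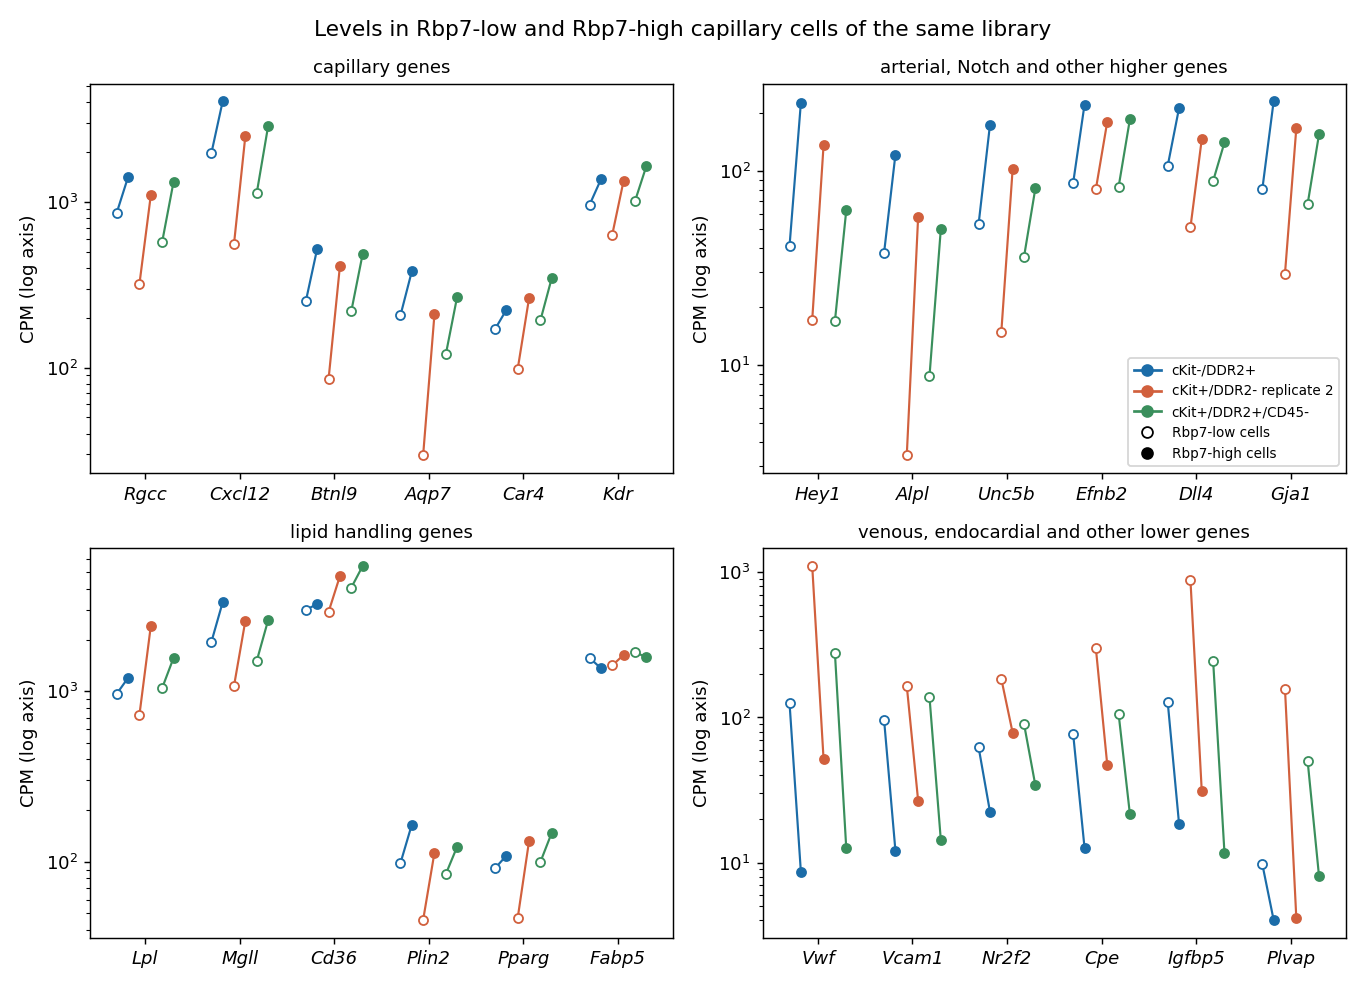
CPM (log axis) of genes in Rbp7-low (open) and Rbp7-high (filled) capillary cells of 3 libraries, grouped by role in 4 panels. Filled points mostly stand above open ones for capillary, lipid, arterial and other higher genes and below them for venous, endocardial and other lower genes, such as Vwf at 8.62 to 51.5 CPM filled and 126 to 1105 CPM open.

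Of 12 arterial genes, 7 were higher and none lower, with a median of 0.74, against 2.72% of all genes higher and a median of 0.04. Hey1, a transcriptional repressor that Notch switches on, stood at 225 against 41.0 CPM in cKit-/DDR2+, 136 against 17.1 CPM in cKit+/DDR2- replicate 2 and 62.7 against 16.8 CPM in cKit+/DDR2+/CD45-, a difference of 2.40 ± 0.54. Every Rbp7-high value lay above every Rbp7-low value, but the Rbp7-high values themselves spread over more than 3-fold between the libraries. Efnb2, the ephrin ligand of arterial endothelium, stood at 221 against 87.2, 179 against 80.8 and 185 against 82.8 CPM, a difference of 1.21 ± 0.11 that was nearly equal in the 3 libraries.

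The Notch ligand gene Dll4 stood at 212 against 107, 146 against 51.2 and 141 against 89.0 CPM, a difference of 1.04 ± 0.42. Nrarp, a feedback inhibitor that Notch induces, stood at 163 against 79.7, 136 against 55.8 and 115 against 68.5 CPM, a difference of 1.01 ± 0.27. The receptor genes Notch1 at 0.44 and Notch4 at 0.36 did not meet the rule. In all, 3 of 8 Notch pathway genes were higher, against 2.72% of all genes, none was lower and the median was 0.40. The Notch genes counted were thus a ligand, a target and a feedback inhibitor.

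Unc5b, a netrin receptor of arteries and tip cells, stood at 174 against 53.5, 103 against 14.8 and 81.5 against 36.1 CPM, a difference of 1.85 ± 0.80. Igfbp3, a binding protein for insulin-like growth factors, stood at 222 against 57.8, 63.9 against 33.0 and 84.2 against 16.8 CPM, a difference of 1.70 ± 0.69. Sox17, a transcription factor of arterial fate, differed by 0.85 ± 0.16. The connexin gene Gja4 was low in both groups, at 24.1 against 19.9, 12.4 against 4.55 and 18.8 against 14.3 CPM, under the 50 CPM needed to be counted. Without the cells holding endocardial genes, 9 of the 12 arterial genes were higher and the median was 0.75, so that the arterial counts did not shrink there as the capillary ones did.

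Among the named genes counted as higher, the largest mean difference belonged to Alpl, the tissue-nonspecific alkaline phosphatase. It stood at 122 against 37.9, 57.7 against 3.42 and 50.2 against 8.72 CPM (2.60 ± 1.05). Gja1, connexin 43, stood at 229 against 80.5, 167 against 29.6 and 155 against 67.9 CPM (1.71 ± 0.66). The remaining genes of the 15 highest were Ttll7, Msx1, the semaphorin Sema7a, B4galt4, Tpst1, Smad6 and Eva1a, between 1.25 and 1.64. Smad6, an inhibitor of BMP signalling, was accompanied by Id1, a BMP target, at 0.77 ± 0.24. Ttll7 no longer met the rule without cKit+/DDR2- replicate 2, where it came to 1.10, and Msx1 came to 0.83.

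**Figure D3:**
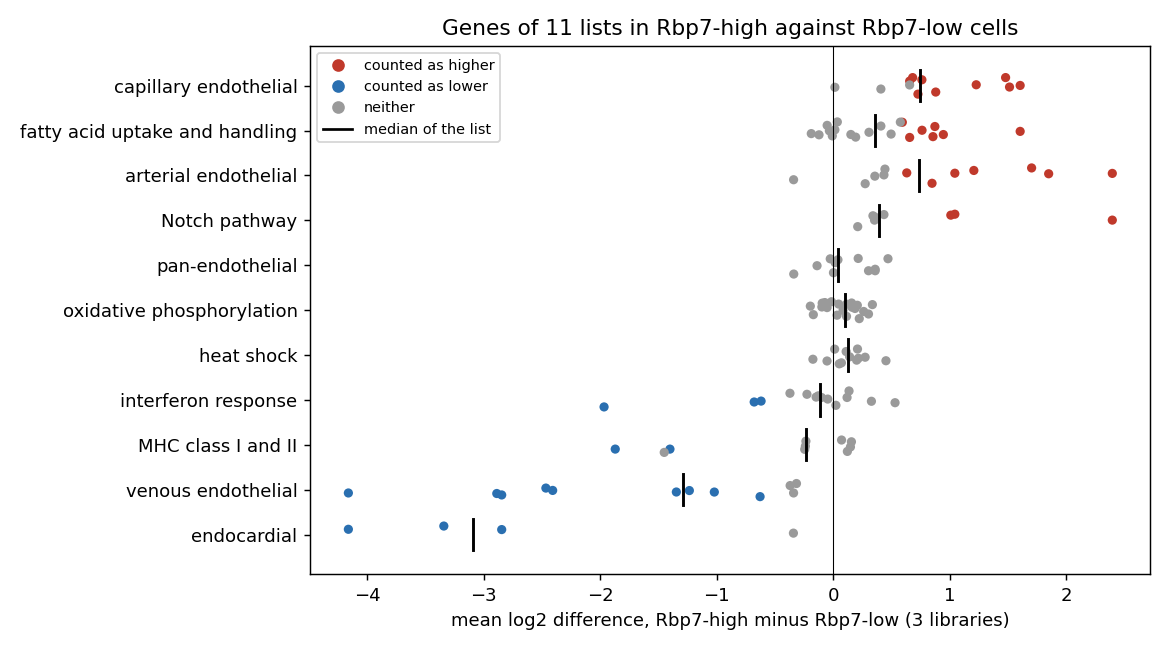
Mean log2 difference, Rbp7-high minus Rbp7-low, of each measured gene of 11 gene lists (points, over 3 libraries) with the list's median (bar). Capillary and arterial genes lie mostly above 0, with medians of 0.74 each, the venous genes all below it with a median of -1.29, and pan-endothelial genes around it at 0.04.

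Venous genes made the opposite picture: of 12, 9 were lower, against 2.66% of all genes, none was higher, and the median was -1.29. Vwf, which encodes von Willebrand factor, stood at 8.62 against 126 CPM in cKit-/DDR2+, 51.5 against 1105 CPM in cKit+/DDR2- replicate 2 and 12.5 against 278 CPM in cKit+/DDR2+/CD45-, a difference of -4.16 ± 0.38. Nr2f2, the transcription factor of venous identity, stood at 22.4 against 62.1, 78.3 against 184 and 34.0 against 90.3 CPM, a difference of -1.35 ± 0.11. Vcam1, an adhesion molecule for leukocytes, stood at 12.1 against 96.1, 26.8 against 165 and 14.3 against 139 CPM, a difference of -2.89 ± 0.30. The summed levels of Vcam1 and Vwf did not overlap between the groups. Vwf UMIs were seen in 3.23% of Rbp7-high and 9.54% of Rbp7-low cells of cKit-/DDR2+. The shares were 15.3% and 47.7% in cKit+/DDR2- replicate 2, and 6.25% and 16.7% in cKit+/DDR2+/CD45-. Most Rbp7-low cells thus held no Vwf UMI.

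Part of the venous list is also expressed by endocardium, and the summed level of 11 endocardial genes was lower in Rbp7-high cells: 99.4 against 301 CPM, 202 against 1807 CPM and 151 against 616 CPM. Without the cells holding 2 or more of them, 5 of 9 venous genes were lower with a median of -0.76. Vwf, itself one of those genes, then came to -1.82 and Nr2f2 to -0.76, whereas Vcam1 stayed at -2.65. Cpe, a carboxypeptidase, differed by -2.47 ± 0.19 and then by -0.61. Plvap, the diaphragm protein of fenestrated and venous vessels, differed by -2.85 ± 1.95 and then by 1.04. The calls for Cpe and Plvap ended without those cells. Plvap, like Vwf, is one of the genes by which the cells were left out, so its change was partly fixed by that choice. The Plvap call also ended without cKit+/DDR2- replicate 2, at -1.79. Plvap came to -3.72 without cKit-/DDR2+.

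The remaining genes of the 15 lowest were led by Igfbp5, a binding protein for insulin-like growth factors, at 18.4 against 127, 30.9 against 887 and 11.7 against 246 CPM. Its difference was -3.94 ± 1.08, -4.54 without cKit-/DDR2+ and -1.71 without the cells holding endocardial genes. Igfbp5 and Igfbp3, from the same family, thus stood on opposite sides. Ptgs1, cyclooxygenase 1, differed by -1.89 ± 0.33, and Icam1, a further adhesion molecule for leukocytes, by -1.24 ± 0.44.

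Retinoid genes other than Rbp7 were sparse, and none of 5 measured was higher by the rule, against 2.72% of all genes. Cyp26b1, which breaks down retinoic acid, stood at 23.0 against 48.5, 33.0 against 72.9 and 26.9 against 56.7 CPM, a difference of -1.07 ± 0.04 with no overlap. The receptor gene Rarg at 0.41 ± 0.34 and the retinal reductase gene Dhrs3 at 0.27 did not meet the rule, and Aldh1a1 and Aldh1a2, which make retinoic acid, stayed below the minimum.

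Of 10 MHC genes, with a median of -0.24, Cd74 and H2-Ab1 of class II were lower, against 2.66% of all genes. Cd74 stood at 4.60 against 15.2, 179 against 207 and 49.3 against 275 CPM, a difference of -1.40 ± 1.13 that was widest in cKit+/DDR2+/CD45- and came to -1.997 without cKit+/DDR2- replicate 2. Its call ended, at -0.77, without the cells holding endocardial genes. Macrophage and pan-immune genes were near 0 in both groups of cKit-/DDR2+ and cKit+/DDR2+/CD45-, where 17 genes summed to 4.48 to 13.7 CPM. In cKit+/DDR2- replicate 2 they summed to 175 CPM in Rbp7-high and 118 CPM in Rbp7-low cells, and their part in that library's Cd74 level was not tested. Of 14 interferon response genes, Cxcl9 at -1.97, Gbp3 at -0.68 and Igtp at -0.62 were lower, again against 2.66% of all genes. The list's median was -0.11. With each of the 3 libraries left out in turn, the Cxcl9 difference ran from -2.55 to -1.36.

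No gene of the heat shock, oxidative phosphorylation, basement membrane, glycolysis or circadian lists (12, 20, 10, 11 and 6 measured genes) met the rule in either direction. Over all genes 5.39% met it, so an empty count in lists of this length lies near that share. Mitochondrial genes took 4.12% of the UMIs of Rbp7-high and 5.20% of those of Rbp7-low cells in cKit-/DDR2+, and 2.75% to 2.84% in both groups of the other 2 libraries. Fibroblast genes summed to 960 against 1038 CPM in cKit-/DDR2+, 109 against 207 CPM in cKit+/DDR2- replicate 2 and 74.4 against 204 CPM in cKit+/DDR2+/CD45-. Pericyte and smooth muscle genes summed to 1113 against 1412, 540 against 170 and 996 against 845 CPM, so they were not on the same side in the 3 libraries.

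In the 3 libraries, 140 cells lay just inside the Rbp7 threshold, from 3 to 3.25, and 144 just outside, from 2.75 to 3. Averaged over the libraries, the cells just inside and just outside stood at 984 and 929 CPM for Rgcc, 2363 and 2276 CPM for Cxcl12, 322 and 289 CPM for Btnl9, 231 and 185 CPM for Aqp7, 57.5 and 54.5 CPM for Hey1 and 46.3 and 48.8 CPM for Vwf. Aqp7 was higher just inside in each of the 3 libraries, at 334 against 241, 77.3 against 67.6 and 281 against 246 CPM, whereas Btnl9 was higher just inside in 2 of them. The cells inside and outside numbered 82 and 90, 14 and 22, and 44 and 32 in the same order. With so few cells and no counting interval, the side of the small Aqp7 difference in cKit+/DDR2- replicate 2 is not settled.

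Divided into 5 bins of Rbp7 level, gated capillary cells showed a graded profile. The bins ran from no Rbp7 UMI, through levels under 2, from 2 to 3 and from 3 to 3.5, to 3.5 and above. Mean Rgcc over the 3 libraries was 333, 467, 727, 1050 and 1460 CPM from the lowest to the highest bin, and it was higher at each step in each library, as was Tcf15. Vwf was 1186, 622, 181, 27.6 and 21.5 CPM and lower at each step in each library, as were Igfbp5 and Cpe. Cells without Rbp7 UMIs were shallow in cKit-/DDR2+, with a median of 2792 UMIs, but not in cKit+/DDR2- replicate 2, with 7586.5 UMIs.

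Arterial genes were concentrated in the top bins. Hey1 was 13.2, 15.3, 33.5, 76.1 and 195 CPM, so that its level more than doubled over each of the last 3 steps of the mean, although it was higher at every step in 1 library of the 3. Efnb2 was flat over the lowest 3 bins, at 85.0, 70.6 and 88.1 CPM, and then stood at 148 and 234 CPM. Unc5b was 22.4, 30.0, 40.8, 105 and 132 CPM. Vcam1 was 136, 163 and 116 CPM in the lowest 3 bins and 33.4 and 4.70 CPM in the highest. Aqp7 was 106, 89.3, 141, 231 and 332 CPM.

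**Figure D4:**
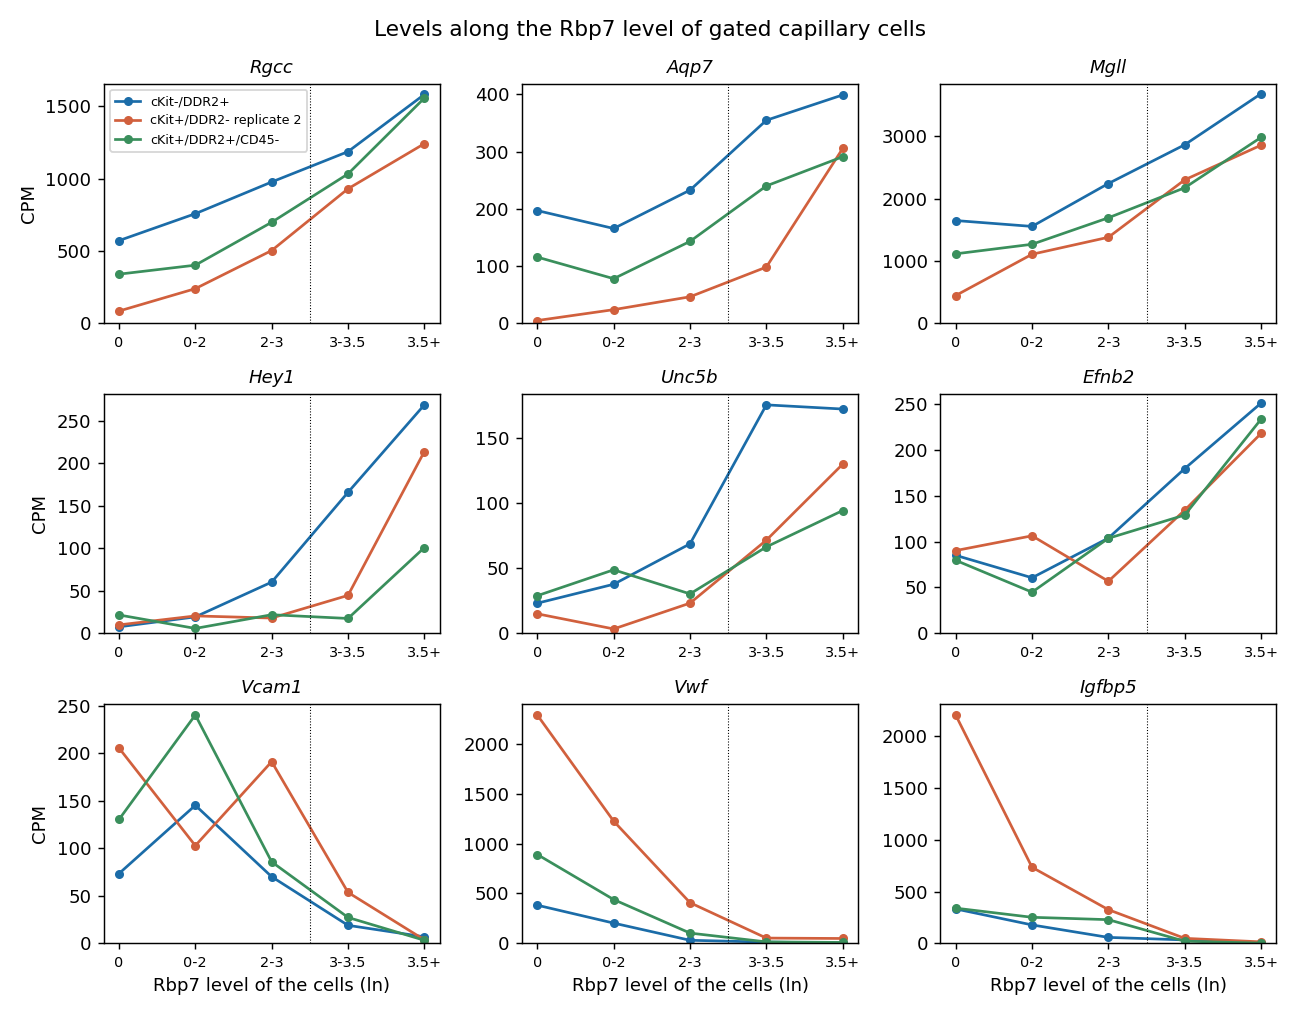
CPM of 9 genes across 5 bins of Rbp7 level in gated capillary cells, 1 line per library, with the Rbp7 threshold dotted. Rgcc is higher at each step in all 3 libraries, Hey1 and Efnb2 are highest in the top bin (195 and 234 CPM on average), and Vwf is lowest on the right.

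Rbp7-high cells were then compared between sorts. Their Rbp7 levels are fixed in part by the threshold and are not compared. With 1 library on each side no test was possible, and the intervals given, 95% exact Poisson intervals, cover counting error only. A gene was counted at 2-fold or more, provided that the higher set had 50 CPM and 20 UMIs of it. Between cKit+/DDR2+/CD45- and cKit-/DDR2+, 34 of 3406 genes were higher (0.998%) and 61 lower (1.79%) in the former. Rbp7-low cells gave 37 and 39. When the gate genes, mitochondrial genes, Gm42418 and Lars2 were left out of the totals, the counts were 55 and 48, so that the higher share of the calls moved from 35.8% to 53.4%, and the median of all genes moved from -0.12 to 0.01. Gm42418, a ribosomal RNA-like transcript, took 1.32% of UMIs of these cells in cKit-/DDR2+ but 9.15% in cKit+/DDR2+/CD45-.

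The genes higher in cKit+/DDR2+/CD45- were led by interferon-induced GTPases. Iigp1 stood at 452 CPM (414 to 494) against 75.3 CPM (62.9 to 89.3), Igtp at 90.5 against 14.4 CPM and Tgtp2 at 59.1 against 5.75 CPM. Of 15 interferon response genes, 8 were higher, against 0.998% of all genes, and none was lower. Their median was 1.01, against -0.12 over all genes, and the same 8 were higher with the other totals. Rbp7-low cells of the same libraries had a median of 1.45 for this list. Iigp1 in the Rbp7-high cells of the other libraries stood at 266 CPM in cKit+/DDR2- replicate 2, 44.5 CPM (4 UMIs) in cKit+/DDR2- replicate 1 and 152 CPM (8 UMIs) in cKit+/DDR2+/CD45+. For Igtp and Tgtp2 the second-highest levels, 75.8 CPM (4 UMIs) and 37.9 CPM (2 UMIs), were those of cKit+/DDR2+/CD45+, whose 14 cells also had the highest summed level of the interferon list, 4926 CPM. The same sum was 2596 CPM for cKit+/DDR2+/CD45-, and for cKit+/DDR2- replicate 2 it was 1739 CPM. The compared libraries cKit+/DDR2+/CD45- and cKit-/DDR2+ stand on opposite sides of the split by Xist, and whether sort, animal or sex went with the difference cannot be told apart. The MHC class I gene H2-Q7 stood at 181 against 41.4 CPM. Angptl4, an inhibitor of lipoprotein lipase that PPARs induce, stood at 89.6 CPM against 21.3 CPM.

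Among the lower genes, Hey1 stood at 62.7 CPM (48.9 to 79.2) in cKit+/DDR2+/CD45- against 225 CPM (204 to 249) in cKit-/DDR2+, a log2 difference of -1.83. Of 13 arterial genes, 4 were lower (Hey1, Igfbp3, Tm4sf1 and Unc5b), against 1.79% of all genes, and none was higher. Their median was -0.84, against -0.12 over all genes. With the other totals, 3 of 14 were lower with a median of -0.60, against 0.01 over all genes. Esm1, a tip-cell proteoglycan, stood at 3.58 against 52.9 CPM and the chaperone gene Hsph1 at 14.3 against 125 CPM. Of 12 heat shock genes, 4 were lower, again against 1.79% of all genes, and none higher, which became 3 lower and 1 higher with the other totals.

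The fibroblast genes Gsn, at 17.9 against 443 CPM, and Dcn, at 19.7 against 260 CPM, led the lower genes. The library cKit-/DDR2+ held 715 fibroblasts by the Pdgfra gate and cKit+/DDR2+/CD45- 36. Gsn was about as high in the Rbp7-low cells of cKit-/DDR2+, at 487 CPM. The part of RNA from other cells in these differences was not tested.

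Between cKit+/DDR2- replicate 2 and cKit-/DDR2+, 56 of 3476 genes were higher (1.61%) and 86 lower (2.47%) in Rbp7-high cells, against 110 and 112 in Rbp7-low cells. With the other totals the counts were 99 and 67, the higher share of the calls moved from 39.4% to 59.6% and the median of all genes from -0.11 to 0.02. Genes of antigen presentation led: H2-Ab1 stood at 113 against 0.575 CPM, and Cd74, the class II invariant chain, at 179 CPM (144 to 221) against 4.60 CPM (1.99 to 9.06). They were accompanied by the macrophage gene Lyz2, at 53.6 against 4.02 CPM. The library cKit+/DDR2- replicate 2 held 739 leukocytes and cKit-/DDR2+ 18, and the part of their RNA was not tested. Lpl was higher, at 2421 against 1201 CPM. Lower were Gsn, Dcn and Esm1 again, and Igfbp3, at 63.9 against 222 CPM.

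Between cKit+/DDR2+/CD45- and cKit+/DDR2- replicate 2, the pair on the same side of the split by Xist, 24 of 3328 genes were higher (0.721%) and 51 lower (1.53%). Of 12 heat shock genes, 5 were lower and none higher. Hey1 stood at 62.7 against 136 CPM and Hsph1 at 14.3 against 76.2 CPM. Lyz2 had no UMI in the Rbp7-high cells of cKit+/DDR2+/CD45-, which puts it at least 19.9-fold lower, against a floor of 3 counts in the summed cells. None of 12 capillary genes differed by 2-fold in this comparison. Over the 3 comparisons, the capillary list gave 1 higher gene, Timp4 at 295 against 102 CPM between cKit+/DDR2+/CD45- and cKit-/DDR2+, and no lower gene. With the other totals, cKit+/DDR2- replicate 2 minus cKit-/DDR2+ also gave 1 higher capillary gene. Over all genes, 0.721% to 1.61% were higher and 1.53% to 2.47% lower in the 3 comparisons. In a list of 12 genes, counts this low lie near those shares.

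**Figure D5:**
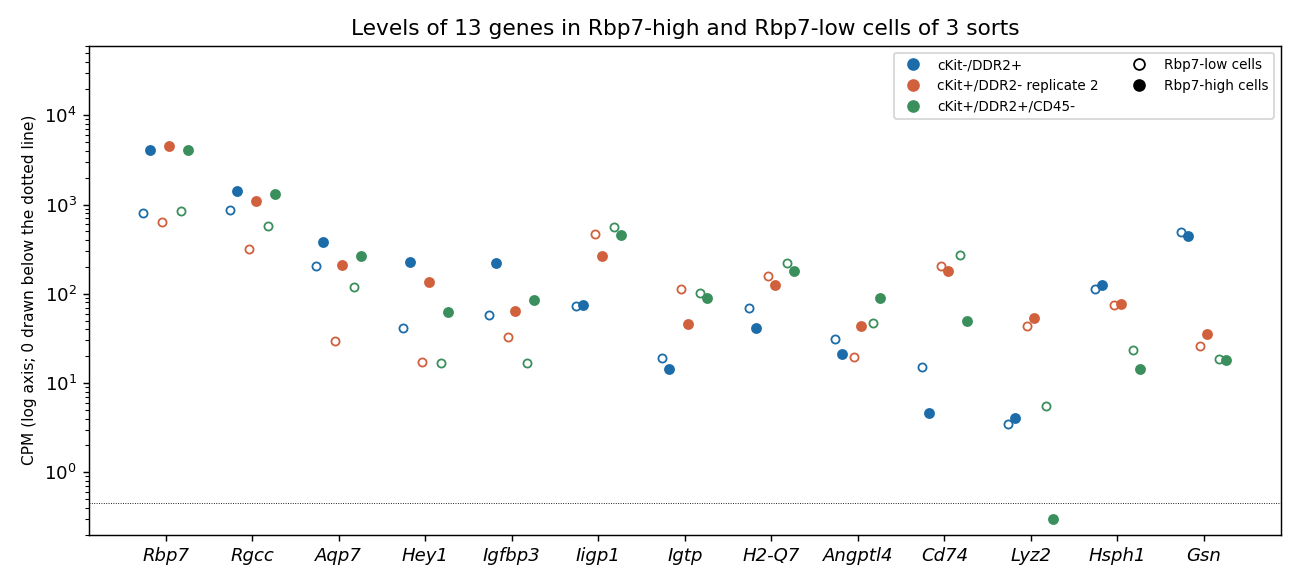
CPM (log axis; values of 0 drawn below the dotted line) of 13 genes in Rbp7-high and Rbp7-low cells of 3 sorts. In the Rbp7-high cells of these 3 libraries Rgcc runs from 1098 to 1415 CPM, Iigp1 from 75.3 to 452 CPM, Hey1 from 62.7 to 225 CPM and Cd74 from 4.60 to 179 CPM.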

How the data were processed

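Single cells were profiled with droplet 3′ chemistry in 5 libraries. Per the submitters' processing notes, Cell Ranger (version not given in the sources used here), the genome build mm10 and Seurat 4.0.4 were used. The deposited values are the natural log of 1 plus UMIs per 10000, and UMIs were recovered from them as whole counts (100% of values within 0.01). Where a library's table does not list a gene, 0 was used, although up to 2 of its cells may hold UMIs of it. No cell or doublet filter was added.

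UMIs of a group's cells were added up within a library and scaled to CPM with Python 3.11.15, numpy 2.4.6, scipy 1.17.1 and pandas 2.3.3 (figures: matplotlib 3.10.9). Differences are log2 ratios after adding 1 CPM. A gene of the higher or lower counts had at least 50 CPM in the mean of a group, at least 20 UMIs, a mean difference of 1.5-fold (2-fold between sorts) and the same side in every library. No significance test was run, since Rbp7 defined the groups and the sorts had 1 usable library each. For cKit+/DDR2- a mean of both libraries had been planned, but replicate 1 has 17 Rbp7-high cells, so replicate 2 stands alone. Replicate numbers follow the order of deposition. The rule for named genes took the 5 markers, the gate genes, the 15 highest and 15 lowest genes counted, the 8 highest and lowest between sorts, and members of 30 gene lists (441 genes, 5 of them not in the tables), leaving out genes of mitochondria, ribosomal proteins and haemoglobin, sex-linked Xist and Y genes, and predicted genes. A library held 436 to 3898 cells and 4047326 to 44847778 UMIs. Some genes that the rule names are not reported here. The code was tested on simulated data. Members, lists and rules were chosen with earlier results of these data known.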

Additional observations from a re-analysis of the deposited data

Results flagged for a closer look

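Some genes lay on opposite sides in different libraries or cell groups, with 95% counting intervals on either side of 0. None of these differences was tested. Odc1, the first enzyme of polyamine synthesis, differed between cKit+/DDR2- replicate 2 and cKit-/DDR2+ by 2.18 (log2) in Rbp7-high cells and by -0.31 in Rbp7-low cells. Cd74 differed between cKit+/DDR2+/CD45- and cKit+/DDR2- replicate 2 by -1.84 in Rbp7-high and 0.41 in Rbp7-low cells.

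The other values are Rbp7-high minus Rbp7-low within a library. Meox2 stood at -0.33 in cKit-/DDR2+ and 0.62 in cKit+/DDR2- replicate 2. Cldn5, a tight junction gene, stood at 1.30 in cKit+/DDR2- replicate 2 and -0.17 in cKit+/DDR2+/CD45-. Vegfc, the lymphatic growth factor, stood at -0.81 in cKit-/DDR2+, 0.82 in cKit+/DDR2- replicate 2 and -1.03 in cKit+/DDR2+/CD45-. Nes stood at 0.74 in cKit+/DDR2- replicate 2 and -0.57 in cKit+/DDR2+/CD45-. Abcc9, a pericyte gene, stood at -1.20 in cKit-/DDR2+ and 1.47 in cKit+/DDR2- replicate 2. The immediate early gene Fosb stood at 0.23 in cKit-/DDR2+, -0.97 in cKit+/DDR2- replicate 2 and -0.67 in cKit+/DDR2+/CD45-. Igfbp4 stood at 0.64, -0.91 and -1.56 in the same order.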

How the results depend on the processing

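Of the gene values recomputed under other settings, 1231 stayed within a limit, 133 moved past it and 5 reversed. The limit was the SD between libraries for Rbp7-high minus Rbp7-low, and the 95% counting interval between sorts. Only genes counted in the main setting, or 2-fold different between sorts, could be labelled reversed. Settings that change only the CPM minimum leave a gene's value as it was and are among the 1231. Of the counts and shares, 90 stayed, within 1.5-fold for counts or the exact interval for shares, and 42 moved. The cause was not tested except where the setting itself changes the genes or cells that enter. Genes higher in Rbp7-high cells numbered 295 with no CPM minimum, 141 with cells thinned to 3000 UMIs, 185 for Rbp7 at or above 3.5 against under 2.5, and 72 to 152 with each library left out in turn. Lower genes numbered 711 with no minimum, 36 with a minimum of 100 CPM, 167 for 3.5 against 2.5, 74 to 137 with each library left out, and 49 without the cells holding endocardial genes, a setting chosen after seeing the data. In that setting Cytl1 came to 0.69 and Plvap to 1.04, against -3.34 and -2.85. Both are among the endocardial genes by which the cells were left out, so these changes were partly fixed by the setting. With replicate 1 in place of replicate 2 of cKit+/DDR2-, against cKit-/DDR2+, Iigp1 came to -0.74 and Igtp to -3.94, and Cd74 in cKit+/DDR2+/CD45- minus replicate 1 came to 2.05.

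The Rbp7-high share at a threshold of 2.5 was 57.7% in cKit-/DDR2+, 42.2% and 59.6% in replicates 1 and 2 of cKit+/DDR2-, and 67.4% and 51.1% in the CD45- and CD45+ double-positive sorts. At 3.5 it was 23.7% in cKit-/DDR2+, 26.1% in cKit+/DDR2- replicate 2, and 28.4% in cKit+/DDR2+/CD45-. With thinned cells it was 46.3% in cKit-/DDR2+ but 17.9% in cKit+/DDR2+/CD45+.

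Between sorts, cKit+/DDR2+/CD45- minus cKit-/DDR2+ gave 87 higher genes with no minimum, 15 at 100 CPM and 55 with the other totals, and 284 lower genes with no minimum, 35 at 100 CPM and 101 for Rbp7 at or above 3.5. For cKit+/DDR2- replicate 2 minus cKit-/DDR2+ the higher counts were 22 at 100 CPM, 99 with the other totals and 10 with replicate 1 instead, and the lower counts 517 with no minimum, 34 at 100 CPM, 165 thinned, 163 at 3.5 and 265 with replicate 1. For cKit+/DDR2+/CD45- minus cKit+/DDR2- replicate 2 the higher counts were 14 with 5 CPM added, 207 with no minimum, 4 at 100 CPM, 105 thinned, 15 at 2.5, 87 at 3.5 and 265 with replicate 1, and the lower counts 13 at 100 CPM and 32 with replicate 1. The sorts could not be paired with each other, because replicate numbers follow the order of deposition and the labels name no animals. Depth limits most the Rbp7-high cells of cKit+/DDR2- replicate 1, at 89848 summed UMIs, and those of cKit+/DDR2+/CD45+, at 52777.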

Other observations

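Growth factor genes were divided between the groups. Of 10 genes of VEGF and angiopoietin signalling, Kdr and Flt4, which encode VEGF receptors, were higher in Rbp7-high cells, Flt4 by 0.68 on the log2 scale. Nrp2, a coreceptor of venous and lymphatic endothelium, was lower, at 202 against 359 CPM in cKit-/DDR2+, 259.6 against 313 CPM in cKit+/DDR2- replicate 2, and 257 against 445 CPM in cKit+/DDR2+/CD45-. Of 15 genes of IGF, TGF-beta and BMP signalling, 4 were higher (Id1, Igfbp3, Igfbp7 and Smad6) and 1 lower (Igfbp5). Over all genes, 2.72% were higher and 2.66% lower. The median of the IGF, TGF-beta and BMP list was -0.02.

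Some genes outside the lists and the 15 highest, chosen after their values were seen, were also higher. Dusp6, a phosphatase that damps ERK signalling, differed by 0.93 ± 0.04 and Sox18, a transcription factor of vascular development, by 0.75 ± 0.10. Cdkn1c, an inhibitor of the cell cycle, stood at 672 against 372, 793 against 248 and 655 against 341 CPM, a difference of 1.15 ± 0.45. Thrsp, a gene of lipid synthesis, differed by 0.91 ± 0.37.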
